A study of Mus musculus with 12 samples.

Results

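The genes described here are Gdf9, Bmp15, Bmp6 and Fgf8, which encode growth factors that the mouse oocyte secretes, and Kit, which encodes the receptor through which the oocyte receives a growth factor in return. These 5 of 23235 listed genes were taken by name for their known role, though with earlier results of these data known, and each of the 5 passed a filter on low levels that kept 11913 genes. Oocytes from WT ovaries were compared with oocytes from ovaries labelled Mtr4-null, after the RNA helicase MTR4, at day 14, when the labels call them growing germinal vesicle (GV) oocytes, and at day 21, when they are called GV oocytes. GV oocytes are arrested in meiotic prophase with an intact nucleus. The labels list 3 samples of 10 oocytes for each genotype and age, from female mice, sequenced as poly(A) RNA by Smart-seq2, which copies polyadenylated RNA along its length without keeping the strand. The promoter or Cre line behind the Mtr4-null genotype, the strain, and whether samples came from separate animals are not given in the sources used here.

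Each value is the authors' mean FPKM of a group, meaning fragments scaled by transcript length and by the number of mapped fragments, so levels can be compared between genes. The table used here holds 4 such means per gene and no values per library. No SD, interval or test can therefore be given for any value below, the depth of the libraries is unknown, and no difference below has a replicate check. Differences are of log2(FPKM + 1) between group means, which understates the fold change of genes with low FPKM, and a gene is called higher or lower where that difference reaches 1, which is 2-fold. Of the values above 0, 66.4% to 67.5% end in 33, 66 or 67 in the other columns but 1.69% do so in that of Mtr4-null oocytes at day 21, so that mean may rest on fewer libraries than the 3 in the labels. The design text of the series speaks of duplicates. FPKM is relative to the RNA of a library, so a change in the RNA content of a whole oocyte would not appear, and fewer transcripts in every oocyte cannot be told apart from fewer oocytes holding them.

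The targeted gene, listed as Skiv2l2, an older symbol of Mtrex, stood at 27.6 (WT) against 1.57 FPKM (Mtr4-null) at day 14, and at 26.3 (WT) against 3.86 FPKM (Mtr4-null) at day 21. It was low in both groups labelled Mtr4-null. All 13 oocyte markers were above 0 in each group, with sums of 17095 to 25492 FPKM. The 18 granulosa and cumulus markers summed to 63.3 (WT) against 54.7 FPKM (Mtr4-null) at day 14 and to 81.4 and 58.7 FPKM at day 21, most of it from Esr2 and Cyp19a1. In Mtr4-null oocytes 8 of the 18 were higher and 9 lower at day 14, and 10 were higher and 8 lower at day 21. Without Esr2 and Cyp19a1 the sum was the higher one in Mtr4-null oocytes at both ages. That sum was 17.7 (WT) against 22.5 FPKM at day 14 and 13.3 against 24.8 FPKM at day 21. Among the low ones, Inha stood at 1.72 and 10.9 FPKM, Gatm at 0.0862 and 1.09 FPKM and Amhr2 at 0.102 and 0.851 FPKM at day 21. Others went the other way at that age, with Inhba at 0.376 and 0.187 FPKM and Fst at 0.0387 and 0 FPKM. From 1 to 3 of these 18 were listed at 0 in a group. The markers Amh, Foxl2 and Fst reached at most 0.254, 0.320 and 0.0497 FPKM, while Inha reached 10.9 and Kitl 3.37 FPKM. The 16 theca, stroma, endothelium and blood markers summed to 14.6 and 12.1 FPKM at day 14 and to 22.8 and 3.49 FPKM at day 21, most of it from Pecam1, and 5 to 7 of them were at 0 in a group, with Lum, Hbb-b1 and Hba-a1 at 0 in all 4. The part of other cells in the results below was not tested.

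The oocyte and the granulosa cells around it control each other's growth by secreted signals. GDF9 and BMP15 are members of the transforming growth factor beta (TGF-beta) family that reach granulosa cells, bind the type II receptor BMPR2 with a type I receptor, and act through SMAD proteins on follicle growth and cumulus cell function. BMP6 belongs to the same family, and FGF8 is a fibroblast growth factor that acts with BMP15 on the metabolism of cumulus cells. In the other direction, granulosa cells make KIT ligand (Kitl), which binds the receptor tyrosine kinase KIT on the oocyte and drives its growth through phosphoinositide 3-kinase.

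The genes are unlike in place and structure. In the GENCODE vM21 annotation of the GRCm38 assembly, Gdf9 on chromosome 11 and Bmp15 on the X chromosome each have 2 exons in their longest coding transcript. Bmp6 on chromosome 13 has 7, Fgf8 on chromosome 19 has 5, and Kit on chromosome 5 has 21. Only the Bmp6 model overlaps other genes, an antisense transcript and Txndc5, which encodes a protein disulfide isomerase and shares 224 bp of exon with Bmp6 on the opposite strand. Since the strand was not kept, reads from that stretch may be counted for either, and Txndc5 was the more abundant of the pair, at 141 FPKM in WT day 14, 158 FPKM in Mtr4-null day 14, 166 FPKM in WT day 21 and 64.1 FPKM in Mtr4-null day 21 oocytes. The Bmp6 values below are uncertain to that extent.

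RefSeq promoter windows of GRCm38.p6, the 250 bases before a RefSeq start, were matched to 3 of the 5 genes, Bmp15, Bmp6 and Kit. The RefSeq and GENCODE starts differ. The window of Bmp6 lies wholly inside the GENCODE model of that gene, which starts upstream of it, and is neither printed nor described. The last 71 bases of the Kit window lie inside the GENCODE model of Kit and are not printed. At day 21 both Bmp15 and Kit were below their WT level in Mtr4-null oocytes, Kit by at least 2-fold and Bmp15 by less. The sequences of Bmp15 and Kit are shown because they set a growth factor gene and the receptor gene side by side in base composition. They run 5′ to 3′ on the strand of the gene, at chrX:6320725-6320974 (minus strand) for Bmp15 and chr5:75574737-75574915 (plus strand) for Kit, from the first of 2 starts listed for that gene. Capitals mark matches to 6 motifs searched on both strands, namely the homeobox cores TAATTA and TAATTG, to which the oocyte factor NOBOX is known to bind, the E-box CANNTG of helix-loop-helix factors such as FIGLA, the GC box GGGCGG, the TATA box TATAAA and the nuclear receptor site AGGTCA.
Bmp15: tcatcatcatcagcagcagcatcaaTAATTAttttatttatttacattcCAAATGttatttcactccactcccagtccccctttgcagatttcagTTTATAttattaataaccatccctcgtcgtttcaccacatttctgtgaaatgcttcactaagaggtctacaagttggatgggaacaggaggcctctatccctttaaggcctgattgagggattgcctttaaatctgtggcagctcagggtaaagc
Kit: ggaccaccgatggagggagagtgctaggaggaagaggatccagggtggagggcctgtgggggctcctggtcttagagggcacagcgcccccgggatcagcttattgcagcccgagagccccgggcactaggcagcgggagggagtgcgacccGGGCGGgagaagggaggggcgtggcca

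Over the whole window of 250 bases, Bmp15 is AT-rich, with 40.4% G and C, whereas Kit holds 70.8%, against 53.2% over the 32851 promoter entries of the table. Bmp15 holds the homeobox core TAATTA, which 4.84% of all entries hold, 1 E-box and, on the opposite strand, 1 TATA box motif. The TATA box letters are in 12.4% of all entries and an E-box in 66.2%. Kit holds 1 GC box, a motif in 32.7% of all entries. Neither window holds TAATTG or AGGTCA, which 2355 and 4607 of all entries hold. These matches describe letters in a window and no binding was measured.

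In WT oocytes the 5 genes spanned a wide range of levels, and none differed 2-fold between day 14 and day 21. Gdf9 was among the most abundant transcripts of the oocyte, the 4th highest of all listed genes at day 14 and the 7th at day 21. It stood at 4247 (WT) against 4409 FPKM (Mtr4-null) at day 14, and at 4054 (WT) against 1972 FPKM (Mtr4-null) at day 21. The Mtr4-null mean of day 21 was the low one, and the other groups lay close together.

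Bmp15 was the 25th highest gene in WT oocytes at both ages. It stood at 1748 (WT) against 1316 FPKM (Mtr4-null) at day 14, and at 1741 (WT) against 950 FPKM (Mtr4-null) at day 21. Both Mtr4-null means were thus below both WT means, with day 21 the lowest. Of the 5 genes, Bmp15 had the largest difference between genotypes at day 14, at -0.41 on the log2(FPKM + 1) scale.

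Fgf8 stood at 136 (WT) against 130 FPKM (Mtr4-null) at day 14, and at 124 (WT) against 22.2 FPKM (Mtr4-null) at day 21. Its rank from the top went from 991 in WT to 3641 in Mtr4-null oocytes at day 21. Of the 5 genes, Fgf8 had the largest difference between genotypes at day 21.

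Bmp6 was the least abundant of the 5. It stood at 16.5 (WT) against 13.1 FPKM (Mtr4-null) at day 14, and at 23.6 (WT) against 6.56 FPKM (Mtr4-null) at day 21. It was the only one of the 5 whose WT mean was higher at day 21 than at day 14, and its Mtr4-null mean went the other way.

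Kit, the receptor on the oocyte surface, stood at 90.8 (WT) against 88.1 FPKM (Mtr4-null) at day 14, and at 85.2 (WT) against 29.7 FPKM (Mtr4-null) at day 21. As for Gdf9 and Fgf8, 3 of the 4 means lay close together and that of Mtr4-null oocytes at day 21 stood apart.

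**Figure D1:**
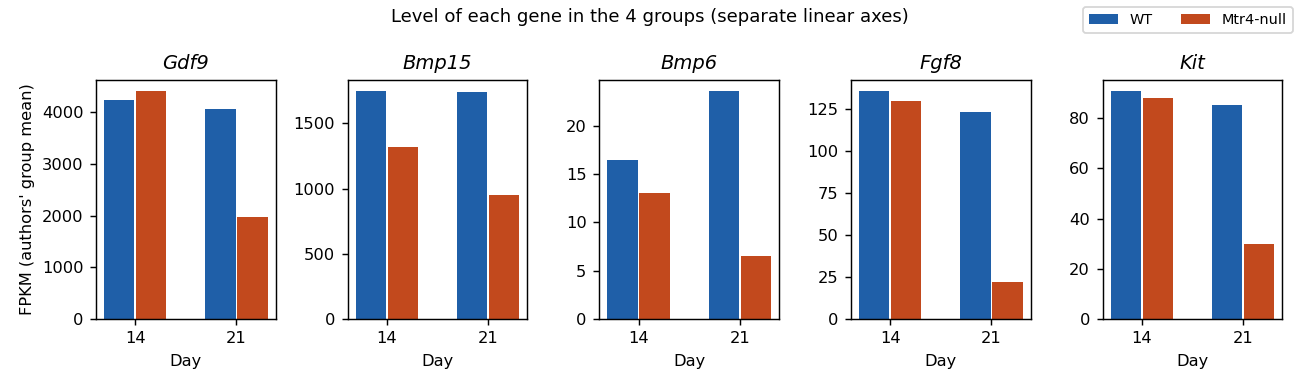
FPKM of each gene (vertical axes, linear and separate, from 0) at day 14 and 21 in WT (blue) and Mtr4-null (orange-red) oocytes; each bar is the authors' mean of a group, with no error available. The Mtr4-null bar of day 21 is the lowest of each panel, from 1972 FPKM for Gdf9 down to 6.56 FPKM for Bmp6.

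The order of levels was Gdf9, Bmp15, Fgf8, Kit, Bmp6 in WT oocytes at both ages and in Mtr4-null oocytes at day 14. In Mtr4-null oocytes at day 21, Kit stood above Fgf8, with Fgf8 at 0.747 times the FPKM of Kit against 1.45 times in WT. Whether these neighbours differ beyond the spread of libraries is not known. The ratio of Gdf9 to Bmp15 was 2.43 in WT and 3.35 in Mtr4-null oocytes at day 14, and 2.33 and 2.08 at day 21. Together the 4 growth factor genes held 1.03% of all FPKM in WT oocytes at day 14, 0.985% in Mtr4-null oocytes at day 14, 0.984% in WT at day 21 and 0.454% in Mtr4-null oocytes at day 21.

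**Figure D2:**
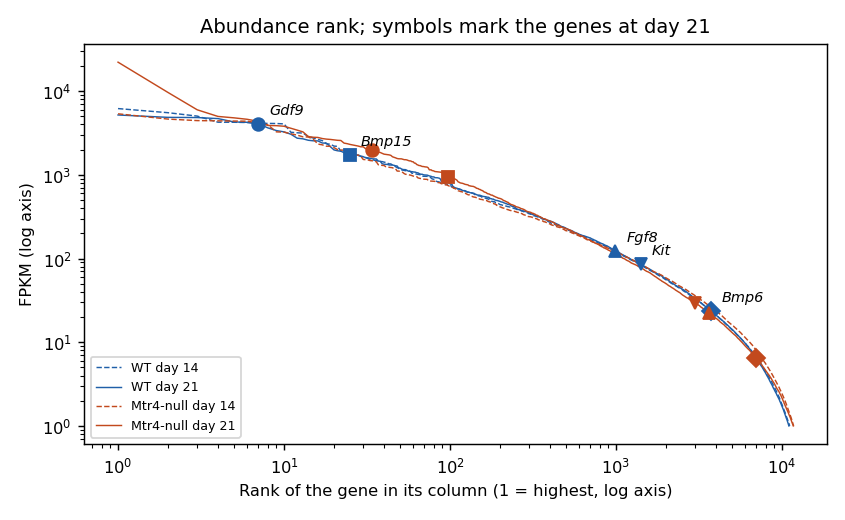
FPKM against the rank of each gene in its column (both log axes); lines are the 4 groups from their highest gene down to 1 FPKM, and symbols mark the 5 genes at day 21 in WT (blue) and Mtr4-null (orange-red) oocytes. All 5 lie further right in Mtr4-null oocytes, with Gdf9 at rank 34 instead of 7, Bmp15 at 97 instead of 25 and Bmp6 at 6942 instead of 3745.

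At day 14 the question was whether transcripts of these genes differ in growing oocytes labelled Mtr4-null, and none of the 5 genes differed 2-fold. The log2 differences were 0.05 for Gdf9, -0.04 for Kit, -0.06 for Fgf8, -0.32 for Bmp6 and -0.41 for Bmp15, against a median of 0.05 over all 11913 genes. Of all genes 1.55% were lower and 8.10% higher at that age, and no member was in either set. The share of higher genes among those called went from 83.9% to 68.8% under quantile normalization. Bmp15 lay at 75.3% of its WT level and Bmp6 at 79.2%, and 11.9% and 17.3% of all genes had differences below theirs. Under median-of-ratios scaling the difference of Gdf9 was -0.04 instead of 0.05.

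At day 21 all 5 genes were lower in Mtr4-null oocytes, and 4 of them, Gdf9, Bmp6, Fgf8 and Kit, were lower by at least 2-fold. By this rule 25.7% of all genes were lower and 20.2% higher at day 21, so a lower value at this age was common. The FPKM of Fgf8 was 5.58-fold lower, that of Bmp6 3.60-fold, that of Kit 2.87-fold, that of Gdf9 2.06-fold and that of Bmp15 1.83-fold. On the log2(FPKM + 1) scale the differences were -2.43 for Fgf8, -1.70 for Bmp6, -1.49 for Kit, -1.04 for Gdf9 and -0.87 for Bmp15.

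Set against all genes, whose median was -0.27, the 5 fell into a graded order. Only 2.12% of genes had a difference below that of Fgf8, 8.92% below that of Bmp6, and 1548 of the 11913 genes below that of Kit. For Gdf9 and Bmp15 the shares were 24.5% and 29.8%, so these lay well inside the spread of all genes. Scaling by the median of ratios brought the all-gene median to 0 and took the share of higher genes among those called from 44.0% to 57.3%. Under that scaling Gdf9 was at -0.71 and no longer 2-fold lower, while under quantile normalization Bmp15 was at -1.22 and so passed 2-fold.

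**Figure D3:**
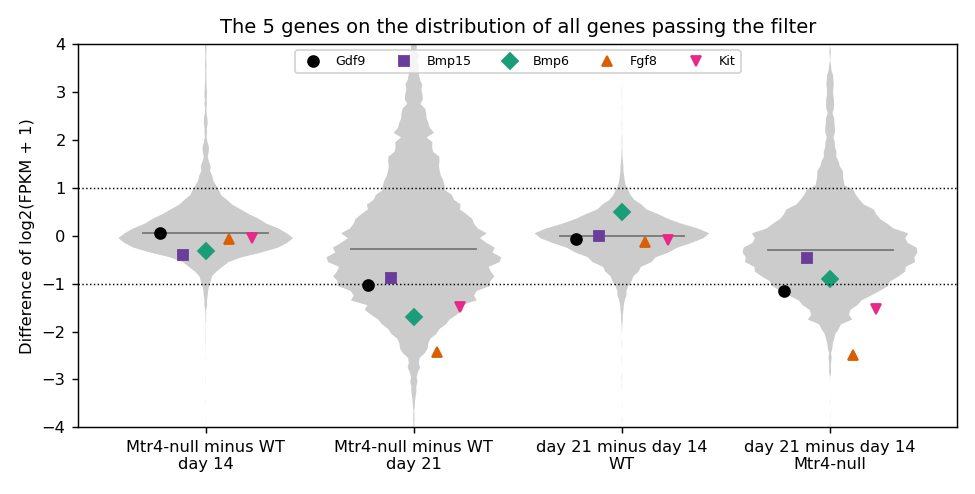
Differences of log2(FPKM + 1) in 4 comparisons (columns); grey shapes show the distribution of the 11913 genes passing the filter, drawn from -4 to 4, grey bars their medians, dotted lines a 2-fold difference, and symbols the 5 genes. At day 21 all 5 lie below the median of -0.27 between genotypes, from -0.87 for Bmp15 to -2.43 for Fgf8, while at day 14 they lie between -0.41 and 0.05.

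Of 69 genes at 1000 FPKM or more in WT oocytes at day 21, 39.1% were at least 2-fold lower and none higher, with a median log2 difference of -0.81. Gdf9 and Bmp15 were near that median, with 22 and 30 of the 69 genes below them. Of 1140 genes from 100 to 1000 FPKM in WT, whose median was -0.70, 48 were below Fgf8. Of 4716 genes from 10 to 100 FPKM, whose median was -0.66, 650 were below Bmp6 and 904 below Kit. Of the 5, Fgf8 thus had the smallest share of genes of like abundance below it. These bands were set on the WT level at day 21, which is also subtracted in the difference, so the 2 are not independent.

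The 5 genes were also set beside genes with a like number of exons at day 21. Over all genes that passed the filter, the median log2 difference was 0.41 for 2 exons, 0.04 for 3 to 4, -0.25 for 5 to 8, -0.47 for 9 to 15 and -0.70 for 16 or more. Among genes with a mean WT level of at least 10 FPKM, as each of the 5 has, it was -0.35 in 179 genes with 2 exons, -0.28 in 796 with 3 to 4, -0.50 in 1539 with 5 to 8, -0.78 in 1642 with 9 to 15 and -1.08 in 963 with 16 or more. The classes of 2 and of 3 to 4 exons thus differed in sign between these sets of genes, as did that of 1 exon, at 1.16 and -0.018. The second set was chosen on the WT level, which also enters the difference. It leaves out genes abundant only in Mtr4-null oocytes. Among the genes of at least 10 FPKM, Gdf9 and Bmp15 were below their class median, with 49 and 58 of the 179 genes lower still. For Fgf8 and Bmp6 the counts were 40 and 158 of 1539, and for Kit 286 of 963. The part of exon number or abundance in the differences of the 5 genes was not tested.

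From day 14 to day 21 no member differed 2-fold in WT oocytes, where 3.32% of all genes were lower and 2.02% higher. The log2 differences ran from -0.13 for Fgf8 to 0.49 for Bmp6, with Bmp15 at -0.0061, Gdf9 at -0.067 and Kit at -0.092. Bmp6 at day 21 was at 143% of its day 14 level, and 88.6% of all genes had a difference below its own.

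In Mtr4-null oocytes all 5 genes were lower at day 21 than at day 14, and 3 of them by at least 2-fold, where 18.6% of all genes were lower and 9.08% higher. Fgf8 was 5.86-fold lower in FPKM, Kit 2.97-fold and Gdf9 2.24-fold, while Bmp6 was 1.99-fold and Bmp15 1.39-fold lower. Only 85 of the 11913 genes had a log2 difference below that of Fgf8. Under median-of-ratios scaling the difference of Gdf9 was -0.73 instead of -1.16, and rescaling each column to a common sum took that of Bmp6 from -0.90 to -1.05. That of Bmp15, -0.47, was -0.044 under median-of-ratios scaling and -0.90 under quantile normalization. Median-of-ratios scaling also took the share of higher genes among those called from 32.8% to 63.5%, and quantile normalization to 48.2%.

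The genotype difference was also compared between the ages. It was lower at day 21 than at day 14 by 2.36 on the log2 scale for Fgf8, by 1.45 for Kit, by 1.39 for Bmp6, by 1.09 for Gdf9 and by 0.46 for Bmp15. The first 4 pass 2-fold, as do 22.4% of all genes in that direction and 13.6% in the other. Median-of-ratios scaling took that of Gdf9 to 0.67 lower. For Bmp15 the value was -0.042 under that scaling and -0.90 under quantile normalization. Median-of-ratios scaling took the share of genes with a higher difference among those called from 37.7% to 61.6%, with 48.7% under quantile normalization. These comparisons use the same 4 means, and each comparison with Mtr4-null oocytes at day 21 rests on the column that may average fewer libraries, so they are not independent of each other.

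The genes with the 4 means most like those of a member were named by the smallest root mean square difference of their centred log2 profiles, among 6152 other genes with a mean of at least 10 FPKM. For Gdf9 these were Pdxdc1, Mms19 and Wdr36, at 0.0090, 0.013 and 0.017, and 164 genes were within 0.1 of it. For Bmp15 they were Ttc1, Smad4 and Sh3bgrl3, at 0.014, 0.024 and 0.034, with 178 genes within 0.1. For Bmp6 they were Rad23b, Pdia5 and 4933427D06Rik, at 0.038, 0.044 and 0.046, with 63 genes within 0.1. For Kit they were Scmh1, Ganab and Stk3, at 0.025, 0.027 and 0.029, with 98 genes within 0.1. Fgf8 had the rarest profile, with 5 genes within 0.1, the nearest being Daglb, Pla2g4c and Fbxw20 at 0.054, 0.072 and 0.082. Among the 5 genes themselves the closest pair was Gdf9 and Kit at 0.19 and the farthest Bmp15 and Fgf8 at 0.78. With 4 points per profile, many genes are alike by this measure.

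All but Bmp6 stood at or near the top of their families in these oocytes. Of 33 TGF-beta family ligands listed, Gdf9 and Bmp15 were the 2 highest in each of the 4 groups, and 8 to 10 of the 33 were at 1 FPKM or more. Of all genes, 25.7% were lower and 20.2% higher at day 21, and 1.55% and 8.10% at day 14. These shares stand beside the main count of each list here and below, and at day 21 are 3067 lower and 2410 higher genes. For list counts under other scalings at day 21, median-of-ratios scaling gave 2155 lower (18.1%) and 2895 higher of the same 11913 genes. Quantile normalization gave 3053 lower (25.6%) and 2361 higher, and columns rescaled to a common sum 3618 lower (30.4%) and 2393 higher. The 7 other ligands that passed the filter divided into 3 lower and 3 higher in Mtr4-null oocytes at the later age. Their median was -0.48, and 2 were lower under median-of-ratios or quantile scaling. Tgfb2, a ligand of the TGF-beta receptors, stood at 159 (WT) against 28.3 FPKM (Mtr4-null) at day 21, and Bmp5 at 49.3 and 6.17 FPKM. The stress-responsive ligand gene Gdf15 stood at 1.505 and 6.18 FPKM, and Inha, the inhibin alpha subunit and also a granulosa marker, at 1.72 and 10.9 FPKM. At day 14, Gdf15 alone among the 7 differed 2-fold, at 1.63 (WT) against 4.60 FPKM (Mtr4-null), though not under median-of-ratios or quantile scaling.

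Fgf8 was the highest of 22 FGF ligands in all 4 groups, and the next highest in WT oocytes at day 21 was Fgf7 at 6.69 FPKM. Of the 4 other FGF genes that passed the filter, Fgf10 was the 1 lower at day 21, at 3.07 and 0.736 FPKM, and 2 of the 4 were lower under quantile normalization or with columns rescaled to a common sum. Kit was the highest of 46 receptor tyrosine kinase genes in WT oocytes at both ages and in Mtr4-null oocytes at day 14. In Mtr4-null oocytes at day 21, Musk, the muscle-specific receptor kinase, was above it at 32.5 against 29.7 FPKM. Of the 14 other receptor kinases that passed, 5 were lower and 1 higher at day 21, or none higher under quantile normalization, with Egfr, the receptor of epidermal growth factor, at 20.6 and 2.23 FPKM, Ephb6 at 8.60 and 1.39 FPKM, Epha4 at 17.0 and 5.29 FPKM and Tek at 3.42 and 0.583 FPKM.

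The 4 genes of proprotein convertases and other processing enzymes that passed the filter differed by less than 1 on the log2(FPKM + 1) scale at either age. Their median was -0.72 at day 21, though 2 were at least 2-fold lower when columns were rescaled to a common sum. Furin, a protease that cleaves the precursors of TGF-beta family ligands, stood at 18.6 (WT) against 8.95 FPKM (Mtr4-null) at day 21, which is 2.08-fold in FPKM and -0.98 on that scale, and Mbtps1 at 12.0 and 6.02 FPKM. Of 9 TGF-beta family receptor genes, 1 was higher and none lower at day 21, with a median of 0.27, or 3 higher under median-of-ratios scaling. The activin receptor gene Acvr1b was the higher one, at 1.27 and 3.98 FPKM. The receptor genes for GDF9 and BMP15, named here for that role, are mainly used by granulosa cells. In the oocyte samples of day 21, Bmpr2 stood at 4.02 (WT) against 4.04 FPKM (Mtr4-null), Tgfbr1 at 5.37 and 4.12 FPKM, and Bmpr1b at 32.3 and 20.4 FPKM.

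Of 11 SMAD pathway genes, 4 were lower and 2 higher at day 21, with a median of -0.94. Median-of-ratios scaling gave 1 lower and 3 higher, and rescaling columns to a common sum 6 lower and 2 higher. The transcriptional co-repressor gene Ski stood at 65.8 (WT) against 23.9 FPKM (Mtr4-null), Smad5, a transducer of BMP signals, at 2.60 and 14.4 FPKM, and Id3, a common target of BMP signals, at 25.7 and 97.0 FPKM. Id2 was the 1 gene of the list to differ 2-fold at day 14, at 8.42 and 3.02 FPKM. Of 5 FGF receptor genes and partners, Fgfr2 was lower at day 21, at 13.8 and 2.47 FPKM, and the adaptor gene Frs2 and the decoy receptor gene Fgfrl1 were higher, at 1.42 and 6.23 FPKM and at 0.641 and 4.20 FPKM.

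Downstream of KIT, 12 of 34 transducers and attenuators were lower and 1 higher at day 21, with a median of -0.45 against -0.27 for all genes, or 10 lower and 2 higher under median-of-ratios scaling. The Src family kinase gene Lyn stood at 10.4 (WT) against 0.659 FPKM (Mtr4-null), the MAP kinase gene Mapk3 at 244 and 57.3 FPKM, and the adaptor gene Gab2 at 6.16 and 1.06 FPKM. Lyn was also lower at day 14, at 3.37 and 0.931 FPKM. Kitl, the ligand of KIT and a product of granulosa cells, stood at 2.86 (WT) against 2.25 FPKM (Mtr4-null) at day 14 and at 2.48 and 3.37 FPKM at day 21. Kit thus had 34.3 times the FPKM of Kitl in WT and 8.80 times in Mtr4-null oocytes at day 21.

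Transcription factors of the oocyte include known regulators of the members. In mouse, loss of NOBOX lowers Gdf9 and Bmp15 expression, and SOHLH1 acts upstream of Nobox and Kit. Of 18 such genes none differed 2-fold at day 14, and 6 were lower and 2 higher at day 21, or 9 lower under quantile normalization, with a median of -0.80. Nobox stood at 665 (WT) against 503 FPKM (Mtr4-null) at day 14 and at 541 and 163 FPKM at day 21. Sall4 stood at 123 and 24.1 FPKM at day 21. Sohlh1 and Tbpl2 were the higher ones, at 0.662 and 5.48 FPKM and at 18.3 and 59.6 FPKM. The part of these factors in the differences of the 5 genes was not tested.

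**Figure D4:**
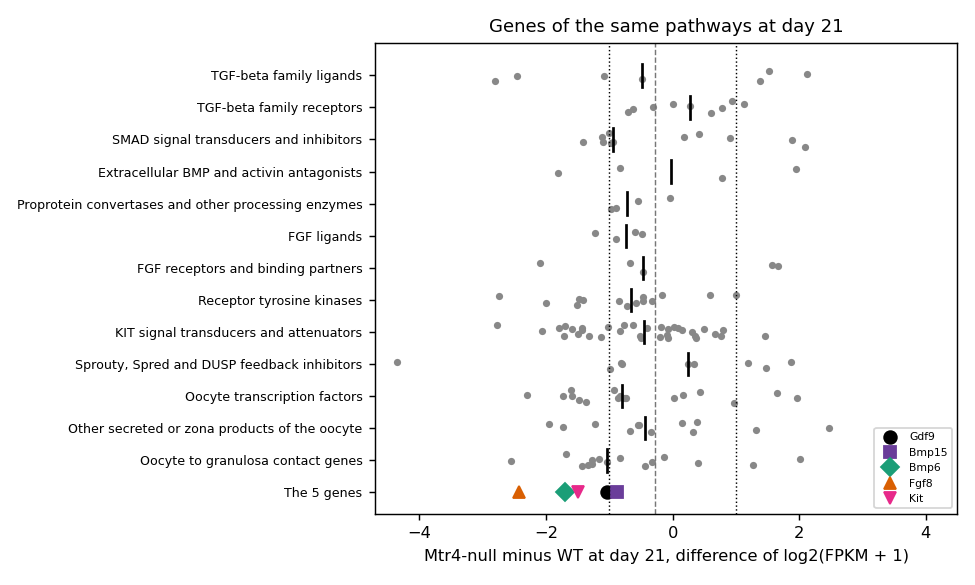
Mtr4-null minus WT at day 21 as a difference of log2(FPKM + 1) (horizontal axis) for the genes of 13 lists that passed the filter, the 5 genes left out of their lists and drawn in the bottom row; black bars are list medians, the dashed line is the median of all genes and dotted lines are a 2-fold difference. List medians lie between -1.04 and 0.27, and Fgf8 at -2.43, Bmp6 at -1.70 and Kit at -1.49 lie to the left of each of them.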

How the data were processed

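Poly(A) RNA of WT and Mtr4-null mouse oocytes was measured at 2 ages. The FPKM values were deposited by the authors as 4 columns, which the values and column names show to be group means, and no column belonged to other samples (0). TopHat2 2.1.1, Cufflinks 2.2.1 and the mm9 build are named, per the submitters' processing notes, without their roles. Filters, annotation and averaging are not given in the sources used here.

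From these means, differences of log2(FPKM + 1) were computed for 11913 genes with a mean of at least 1 FPKM over the 4 groups, and a difference of 1 was called 2-fold. The model across libraries foreseen for a table of single libraries (limma) could not be run on means. The scripts were tested on simulated data. Alternatives were pseudocounts of 0.1 and 5, no filter or a minimum of 5 FPKM, median-of-ratios scaling, quantile normalization, and columns rescaled to a common sum. Named genes were the 5 members, the targeted gene, the 3 nearest profiles per member and, of each list, at most 4 genes with the largest genotype differences of at least 2-fold, or with none the 2 most abundant. Bmpr2, Tgfbr1, Bmpr1b, Kitl, Musk and Fgf7 and the markers fall outside that rule. A gene that the rule names is not reported here. The members and lists were chosen with earlier results of these data known. Gene structures from GENCODE vM21 and promoters from RefSeq, both on GRCm38, were joined by symbol, and promoter bases inside a GENCODE gene model were not printed; exon numbers matched 9974 of the 11913 genes. Python 3.11.15, numpy 2.4.6, pandas 2.3.3 and matplotlib 3.10.9 were used.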

Additional observations from a re-analysis of the deposited data

How the results depend on the processing

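Of 175 recomputed differences of the 5 genes (25 differences under 7 alternatives), 170 kept their side of 2-fold. Of the other 5, median-of-ratios scaling took Gdf9 to -0.71 between genotypes at day 21, -0.73 between ages in Mtr4-null oocytes and -0.67 for the difference of the genotype differences. Quantile normalization took Bmp15 to -1.22 at day 21, and rescaling to a common sum took Bmp6 to -1.05 between ages in Mtr4-null oocytes. The cause was not tested. At day 21 the ranges were -1.36 to -0.71 for Gdf9, -1.22 to -0.55 for Bmp15, -1.86 to -1.31 for Bmp6, -2.55 to -2.11 for Fgf8 and -1.61 to -1.17 for Kit.

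Counts over all genes moved more. With a pseudocount of 5, the lower genes went from 185 to 70 and the higher from 965 to 447 at day 14, and from 3067 to 1762 and from 2410 to 1498 at day 21. Between ages they went from 396 to 127 and 241 to 69 in WT, from 2216 to 1089 and 1082 to 673 in Mtr4-null oocytes, and from 2672 to 1397 and 1618 to 920 for the difference of differences. A pseudocount of 0.1 gave 334 lower genes at day 14, and 835 lower and 447 higher between ages in WT. A minimum of 5 FPKM kept 8189 genes instead of 11913, so its counts are over a smaller set. It gave 1447 higher genes at day 21, 133 and 695 between ages in WT and Mtr4-null oocytes, and 1042 for the difference of differences. Quantile normalization gave 321 lower genes at day 14. Median-of-ratios scaling gave 1044 lower and 1813 higher genes between ages in Mtr4-null oocytes, and 1474 lower for the difference of differences. No paired analysis was possible because the table holds 1 mean per group. Leaving out replicates was not run, since the table has none.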

Other observations

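Genes of the contact between oocyte and granulosa cells had a lower median than all genes at day 21, at -1.04 against -0.27. Abundant genes had lower medians too, at -0.81 from 1000 FPKM in WT, -0.70 from 100 to 1000 and -0.66 from 10 to 100. In these ranges 36.2% to 39.1% of genes were at least 2-fold lower, against 25.7% of all genes. The ranges were set on the WT level at day 21, which is also subtracted in the difference, so the 2 are not independent. The part of abundance in the contact genes was not tested. Of 15 contact genes that passed the filter, 8 were at least 2-fold lower and 2 higher in Mtr4-null oocytes. Under median-of-ratios scaling 5 were lower and 2 higher. Rdx, which encodes the membrane linker radixin, stood at 1021 (WT) against 318 FPKM (Mtr4-null), and the adhesion genes Cdh1 and Cdh2 at 40.2 and 14.2 FPKM and at 13.2 and 1.42 FPKM. Cdh2 was also 2-fold lower at day 14, at 8.62 and 2.95 FPKM. The connexin gene Gjc1 was on the other side, at 0.378 and 4.53 FPKM at day 21. Gja4, the connexin gene of the oocyte side of the gap junctions, falls outside the rule for named genes and stood at 505 and 224 FPKM.

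The feedback inhibitors of receptor tyrosine kinase signalling differed among themselves at day 21, with 3 of 9 higher and 1 lower, and with 3 lower when columns were rescaled to a common sum. Spry4 had a log2 difference of -4.35, at 118 (WT) against 4.82 FPKM (Mtr4-null), while Spry1 stood at 34.5 and 80.2 FPKM and Spry2 at 0.208 and 3.41 FPKM. Of 12 other secreted or zona products, 3 were lower and 2 higher, or 2 lower under median-of-ratios scaling, with Rspo2, which enhances Wnt signalling, at 233 and 69.7 FPKM, Oosp2 at 1106 and 284 FPKM and the neurotrophin gene Ntf5 at 0.788 and 8.92 FPKM. Among 4 extracellular antagonists 1 was lower and 1 higher, or 2 lower under quantile normalization or with columns rescaled to a common sum, and Twsg1 stood at 6.39 and 27.6 FPKM and Dand5 at 18.1 and 4.48 FPKM.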
